A study of Bos taurus with 12 samples.

Results

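The genes described here encode the subunits of the mitochondrial respiratory chain and of the ATP synthase, as read on arrays of the rumen papillae of Holstein cows before and during a grain challenge. They were chosen by name: every gene whose symbol starts with NDUF, SDHA to SDHD, UQCR, COX4 to COX8 or ATP5, which also takes in some assembly factors. The rule found 88 genes, covered by 115 probe sets, among 9155 genes named on the array. Complex I held 42 of them, complex II 8, complex III 8, complex IV 13 and complex V, the ATP synthase, 17. Genes were placed by the start of the symbol. The 42 of complex I thus include 4 assembly factors, NDUFA4, which is now placed in complex IV, and its paralog NDUFA4L2. A gene was represented by its probe set of largest standard deviation (SD) over all arrays; 64 genes had 1 probe set, 21 had 2 and 3 had 3.

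Papillae from the ventral sac of the rumen were sampled from 4 cows at 3 times, giving 12 arrays. The week 0 samples were taken on a high forage diet, which served as the control. The week 1 and week 3 samples were taken from the same cows during grain feeding. Cows 1 to 4 are the replicates, so each week had 4 separate animals, and the week 1 and week 3 comparisons with week 0 share the same 4 control samples.

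Complexes I and II pass electrons from NADH and succinate to ubiquinone, complex III passes them on to cytochrome c, and complex IV to oxygen. The proton gradient that complexes I, III and IV build drives the ATP synthase. The rumen epithelium that covers the papillae absorbs the short-chain fatty acids of fermentation and oxidises part of them in its mitochondria, butyrate above all, and this chain completes that oxidation.

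The deposited values are log2 values in which the median of every probe set over the 12 arrays is 0. A value of 0.30 thus says that an array stood 0.30 above that probe set's own median, and no level can be compared between genes or called absent. For the same reason the tissue could not be checked against the level of its markers, although probe sets were found for 5 of 8 basal keratinocyte and 5 of 12 differentiated keratinocyte markers. In whole tissue, fewer cells of a type and less RNA per cell cannot be told apart. The 18 probe sets of the hybridization controls, RNAs added in the laboratory, stood apart on 3 arrays. Their mean was 0.49 on week 0 cow 1, 0.72 on week 0 cow 2 and 0.48 on week 1 cow 1, against -0.32 to 0.055 on the other 9. Where leaving these arrays out turned the sign of a member's difference printed with its SE, or moved it by over 1.5 times, that value is given too. A call means an adjusted p under 0.05 (limma, Benjamini-Hochberg over 24016 probe sets).

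None of the 88 genes was called between any 2 of the 3 weeks. The share of all probe sets called was 0% as well in each of the 3 comparisons and in the F test over the weeks. With the cow as a block it was 0.00833% for week 1 against week 0, 0% for the other 2 comparisons and 0.00416% for the F test, and no member was among those called. The lowest adjusted p among the members was 0.711 for week 1 against week 0 (0.382 with the cow as a block). It was 0.901 for week 3 against week 0 (0.632 with the block) and 0.999 for week 3 against week 1 (0.294 with the block).

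At an unadjusted p under 0.05, week 1 exceeded week 0 in 2 members and fell short of it in 0, where 3.28% of all probe sets were higher and 1.87% lower. Week 3 against week 0 also gave 2 higher and 0 lower, against 2.52% and 1.36% of probe sets. Week 3 against week 1 gave 0 in either direction, against 2.47% and 2.41%. Counted by animal, 5 members (COX7A1, NDUFB5, NDUFS1, SDHAF4 and SDHD) were higher at week 1 than at week 0 in 4 of 4 cows (6.91% of probe sets) and 0 were lower in all (3.4%). Against week 0, week 3 gave 2 higher (SDHD and SDHAF4, 36.3%) and 2 lower (NDUFA10 and UQCRC2, 4.63%). Against week 1 it gave 2 higher (ATP5F1D and COX8B, 5.12%) and 2 lower (NDUFA5 and NDUFS1, 4.6%). Members whose weekly values did not overlap numbered 2 higher (2.09%) and 0 lower (0.591%) at week 1 against week 0, and 0 higher (2.72%) and 0 lower (0.754%) at week 3 against week 0. At week 3 against week 1 they were 1 higher (1.07%) and 0 lower (1.38%). Each of these shares of the members was near or under that of the whole array.

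The middle of the group hardly moved between the weekly means. Over the 88 genes the median difference was -0.0067 at week 1 and -0.041 at week 3, both against week 0, and -0.031 at week 3 against week 1. The same medians over all named genes were 0.024, 0.017 and -0.0078. Single members ranged from -0.50 (NDUFS3) to 0.57 (SDHAF4) at week 1 and from -0.24 (NDUFV1) to 0.54 (SDHAF4) at week 3, both against week 0. The mean was lower than at week 0 in 47 of 88 members at week 1, where 36.7% of named genes were lower, and in 69 at week 3, against 35.5%. At week 3 it was below week 1 in 64 members, against 59.2% of named genes.

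The array medians of the 88 genes show the spread behind these small means. At week 0 they were 0.081, 0.32, -0.061 and -0.21 in cows 1 to 4. At week 1 they were -0.0049, -0.015, 0.13 and -0.00038, and at week 3 0.070, -0.035, -0.043 and -0.0082. On forage, then, cow 2 stood high and cow 4 low, and the weekly groups overlapped. The distance between these 2 cows was 0.52 at week 0, a 1.44-fold difference, and -0.014 at week 1 and -0.027 at week 3.

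**Figure D1:**
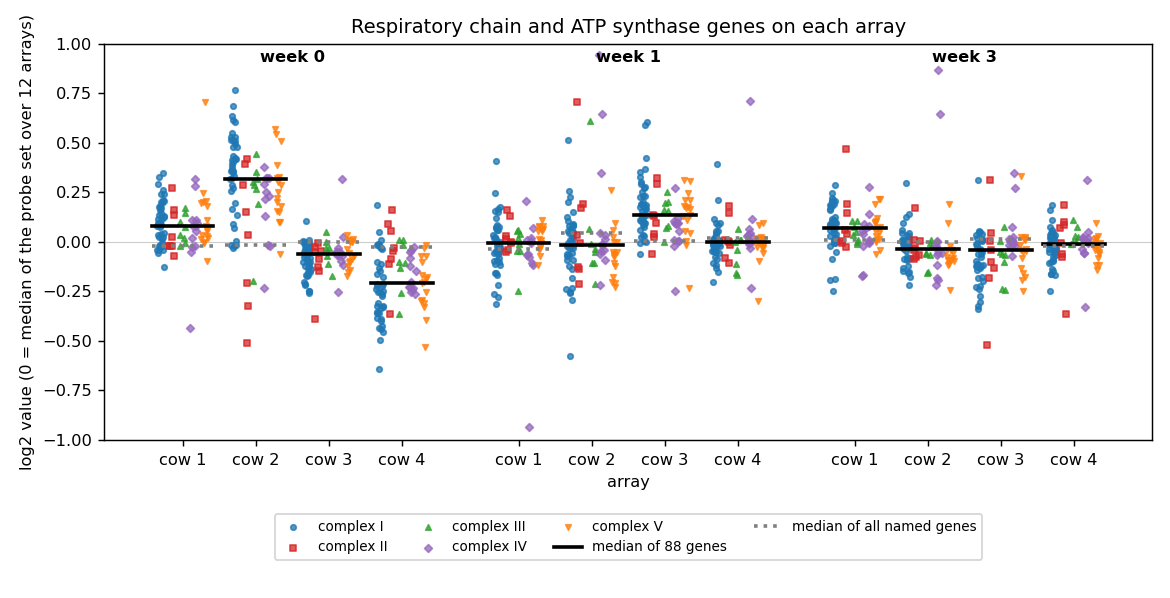
Log2 values of the 88 genes on each of the 12 arrays, grouped by week and cow; each point is a gene, coloured by complex, the black bar is the median of the 88 genes and the dotted bar the median of all named genes. The week 0 medians run from -0.21 in cow 4 to 0.32 in cow 2; 4 points beyond 1 on either side (NDUFS3 at 2.13 and 1.17, COX8B at 1.32, COX6A1 at -1.35) are off the axis.

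The order of the cows on forage was shared by most members. Cow 2 had the highest week 0 value of the 4 cows in 71 of 88 genes, where 21.4% of named genes had it highest. Cow 4 had the lowest in 64, against 43.6% of named genes, and both held in 59, against 10.9%. Above its own 12-array median stood 76 members on the week 0 array of cow 2 and 66 on that of cow 1, but only 13 in cow 3 and 8 in cow 4. At week 1 the array of cow 3 led, with 81 members above 0, and 37 to 43 in the other 3 cows.

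The cows moved in different directions after the change of feed. From week 0 to week 1 the median member changed by -0.10 in cow 1 and -0.33 in cow 2, with 20 and 15 of 88 genes higher. In cows 3 and 4 it was 0.20 and 0.18, with 84 and 74 genes higher. Of all named genes 42.4%, 62.2%, 63.0% and 61.6% were higher in cows 1 to 4. From week 0 to week 3 the changes were -0.013, -0.35, 0.018 and 0.18, with 36, 9, 50 and 80 genes higher. The shares of all named genes were 68.5%, 64.9%, 66.4% and 60.4%, so the members' share was above that of the array only in cow 4.

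**Figure D2:**
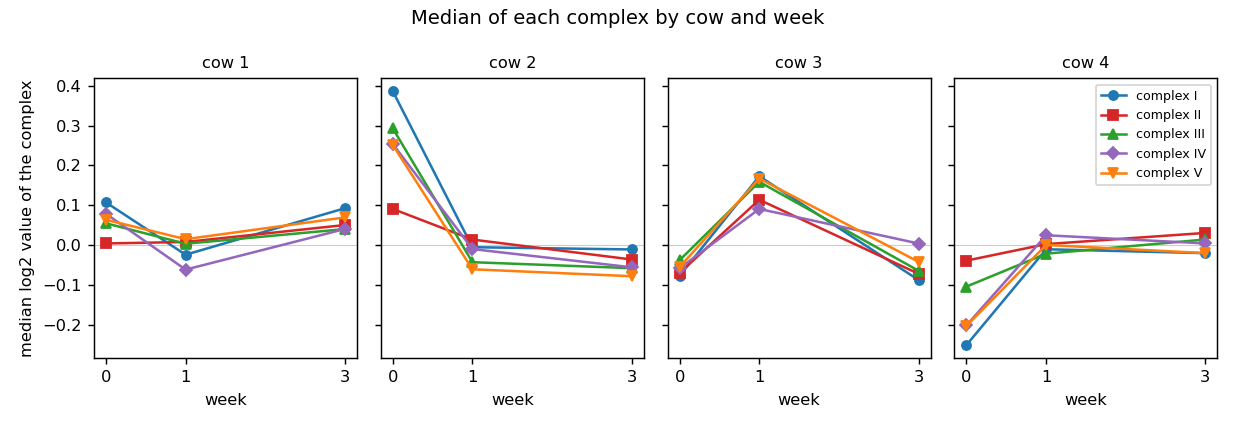
Median log2 value of complexes I to V at weeks 0, 1 and 3, one panel for each cow. Within cow 2 all 5 medians are highest at week 0, within cow 4 all 5 are lowest at week 0, and within cow 3 all 5 are highest at week 1.

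The hybridization controls were high on the arrays of cows 1 and 2 at week 0, and the members stood high on both. The members also stood high on week 1 cow 3, with a median of 0.13, where the controls were at 0.055. On the third array of high controls, week 1 cow 1, the median member was at -0.0049. Without the 3 arrays of high controls week 0 rests on cows 3 and 4 and week 1 on cows 2, 3 and 4. The direction of both comparisons with week 0 then turned. The median difference became 0.17 for week 1 against week 0, with 79 of 88 members higher where 62.5% of named genes were higher. For week 3 against week 0 it became 0.12, with 80 higher against 67.3%, and for week 3 against week 1 it was -0.041. Leaving out cow 2 alone also turned the first 2 medians, to 0.097 and 0.051. By complex, the week 1 median was 0.21 in complex I, 0.070 in II, 0.12 in III, 0.16 in IV and 0.16 in V.

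Still no member was called on these 9 arrays, where 0.0208%, 0.025% and 0.05% of probe sets were. At an unadjusted p under 0.05, week 1 exceeded week 0 in 25 members (12.7% of probe sets) and week 3 exceeded it in 13 (2.78%). The count of lower members was 0 in both (4.97% and 2.27% of probe sets). Between the grain weeks it was 1 higher (6.33%) and 5 lower (6.11%). Whether the arrays of high controls or the animals set this difference in direction was not tested. The 2 cows that remain at week 0 are those with the lower forage values.

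**Figure D3:**
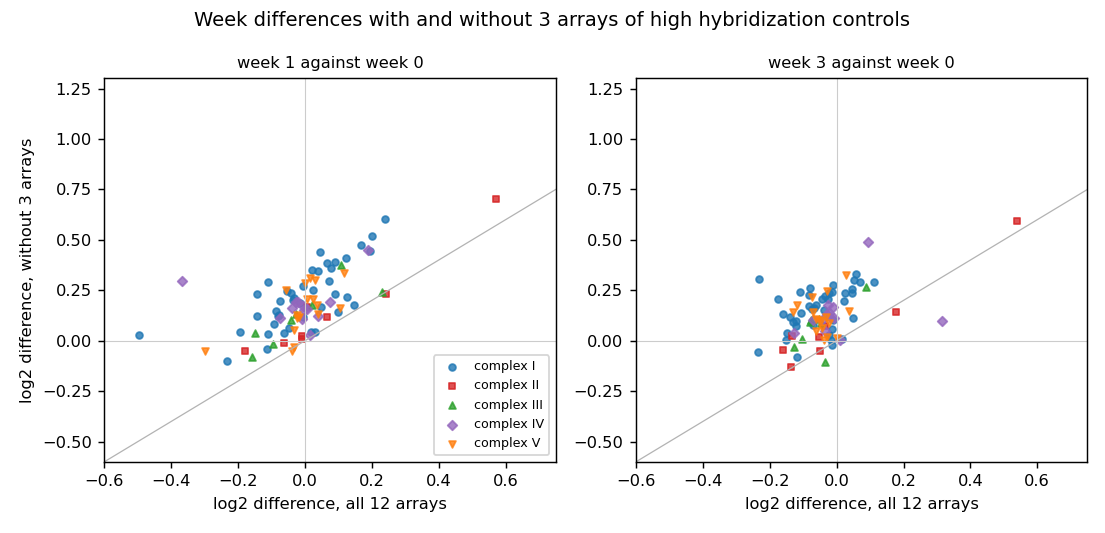
Log2 difference of each of the 88 genes over all 12 arrays (horizontal axis) against the difference without the 3 arrays of high hybridization controls (vertical axis), for week 1 and week 3 against week 0; the grey line marks equal values. Most points lie above the line: 79 genes (week 1) and 80 genes (week 3) are above 0 on the vertical axis, against 41 and 19 on the horizontal one.

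Of the members' total variance over the 12 arrays, 37.4% lay between cows, 11.1% between weeks and 51.5% in changes of single cows between weeks, measurement error included. Over all named genes these shares were 50.6%, 20.6% and 28.8%. The shares pool the squared deviations of all members, so the members of widest spread weigh most. These were NDUFS3, COX6A1 and COX8B, with SDs of 0.67, 0.61 and 0.59 over the 12 arrays. By complex, the share between cows ran from 14.2% in complex III to 56.2% in complex IV. The spread between the cows was largest on forage. The median SD over the 4 cows was 0.24 at week 0, 0.12 at week 1 and 0.11 at week 3 for the members, against 0.18, 0.21 and 0.13 for the 6598 named genes outside the lowest 40% of probe set SDs. In 69 of 88 members the SD was largest at week 0, where 27.7% of all named genes and 35.0% of these 6598 had it there. By complex this held for 34 of 42 genes in complex I, 4 of 8 in II, 7 of 8 in III, 9 of 13 in IV and 15 of 17 in V. This pattern was chosen after the values were seen and carries no test.

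Leaving out an extreme value tends to narrow an SD, and cows 2 and 4 were the extremes of most members on forage. The median SD of week 0 was 0.17 without cow 2 and 0.20 without cow 4. Without cow 2 the count was 50 of 88 (56.8%), against 27.4% of the other named genes outside the lowest 40% of SDs. Without cow 4 it was 59 (67.0%, against 34.2%). Without cow 1 it was 70 (79.5%, against 40.9%) and without cow 3 69 (78.4%, against 33.5%). With cows 3 and 4 alone, which have no array of high hybridization controls, the count was 31 of 88 (35.2%), near the 31.0% of those other genes.

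**Figure D4:**
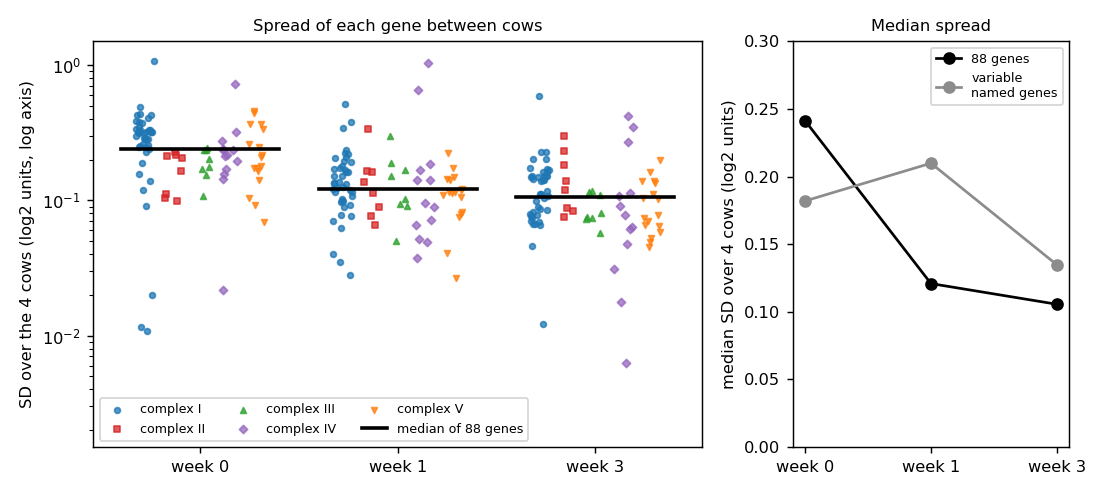
SD over the 4 cows at each week for the 88 genes (left, log axis, points coloured by complex, bars at the median) and the median SD beside that of 6598 named genes outside the lowest 40% of SDs (right). The median of the members is 0.24 at week 0, 0.12 at week 1 and 0.11 at week 3, while that of the 6598 genes is 0.18, 0.21 and 0.13.

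Most members followed one another over the arrays. The correlation of a gene with the median of the other 87 members was over 0.5 in 66 genes (75%) and over 0.8 in 47 (53.4%), with a median of 0.82. Among the other named genes 9.56% passed 0.5 and 1.47% passed 0.8. These are descriptions over 12 arrays that come from 4 animals and share the same scaling, so the arrays are not independent. Over the 9 arrays without high hybridization controls 62 members (70.5%) passed 0.5 and 42 (47.7%) passed 0.8, against 12.6% and 1.97% of the other named genes. The median over the members was then 0.78. The variance shares above and the correlations that follow are over all 12 arrays. The medians of the 5 complexes correlated with each other at 0.69 to 0.96, lowest between complexes II and IV and highest between I and V.

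In complex I, the NADH dehydrogenase, NDUFB9 and NDUFS4, both accessory subunits, followed the group most closely, with correlations of 0.97. NDUFB9 stood at 0.20, 0.48, -0.12 and -0.21 in cows 1 to 4 at week 0, at -0.025, -0.0028, 0.19 and 0.020 at week 1, and at 0.11, 0.0028, -0.060 and -0.037 at week 3. The extremes were thus both on forage, and the 3 weeks overlapped. NDUFA11, an accessory subunit of the membrane arm, was at 0.77 in cow 2 and -0.33 in cow 4 at week 0, and between -0.26 and 0.25 in all 8 grain samples.

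NDUFV1 binds the flavin mononucleotide that accepts the electrons of NADH. At week 0 it was at 0.033, 0.63, -0.019 and -0.026 in cows 1 to 4, at week 1 at 0.063, -0.25, 0.035 and -0.15, and at week 3 at -0.19, 0.019, -0.23 and 0.073. One animal, cow 2 on forage, stood far above the rest, and the weeks overlapped. The difference was -0.24 ± 0.15 (SE, n = 4 cows a week) at week 3 against week 0, with an adjusted p of 0.901 (limma). Without the 3 arrays of high controls it was -0.058.

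NDUFB5, an accessory subunit, had the smallest p of complex I in both comparisons with week 1 in the fit without the cow. Its values were -0.0033, 0.0023, -0.039 and -0.028 at week 0, -0.0023, 0.054, 0.18 and 0.096 at week 1, and 0.047, -0.030, -0.18 and 0.033 at week 3. Week 1 was higher than week 0 in 4 of 4 cows, by a mean of 0.099 ± 0.053 (SE), with groups that overlapped and an adjusted p of 0.763. Week 3 was lower than week 1 by 0.11 ± 0.053 (SE), lower in 3 of 4 cows, with an adjusted p of 0.999. This probe set was among the 7 members with an SD in the lowest 40% of all probe sets.

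NDUFS1, a core subunit of the peripheral arm, had the smallest p of all members at week 1 against week 0 when the cow was a block. It was at 0.015, -0.018, -0.26 and 0.052 at week 0, 0.16, 0.072, -0.063 and 0.21 at week 1, and 0.067, -0.026, -0.32 and -0.015 at week 3. Cow 3 was the lowest animal in every week, and the weeks overlapped. The difference at week 1 against week 0 was 0.15 ± 0.097 (SE), higher in 4 of 4 cows, with an adjusted p of 0.763. With the block the SE was 0.039, the unadjusted p 0.0060 and the adjusted p 0.382. From week 1 to week 3 the difference was -0.17 ± 0.097 (SE), lower in 4 of 4 cows, with an adjusted p of 0.999 (0.294 with the block). Its correlation with the other members was 0.051. With the mean of its 3 probe sets the differences were 0.048 and -0.071. Of the probe sets not chosen, one followed the members at 0.44 and was at -0.051 at week 1 against week 0. The other followed them at -0.0022 and was at 0.048.

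Complex I also held the single highest value of the whole group. NDUFS3, a core subunit of the peripheral arm, was at 2.13 on week 0 cow 1 and 1.17 on week 3 cow 1, and between -0.035 and 0.059 on the other 10 arrays. Both high values came from the same cow, and its week 1 sample was at 0.059. A different NDUFS3 probe set stood at 0.053 and 0.099 on those 2 arrays and correlated with the chosen one at only 0.20. The assembly factors NDUFAF3, NDUFAF5 and NDUFAF8 followed the group at 0.82, 0.59 and 0.57, and NDUFAF6 did not (-0.019).

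Complex II, succinate dehydrogenase, is shared with the citric acid cycle and stood apart from the rest. The median correlation of its 8 genes with the other members was 0.29, against 0.82 to 0.88 for complexes I, III, IV and V. No complex II gene passed 0.8, and 3 of the 8 genes whose correlation was below 0 belonged to it. SDHA, the flavoprotein, and SDHB, the iron-sulfur subunit, correlated at 0.61 and 0.64, whereas the membrane anchors SDHC and SDHD stood at 0.15 and -0.26.

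SDHD had the smallest p of all members at week 1 against week 0 in the fit without the cow. With the cow as a block its p was 0.014 and that of SDHAF4 0.012, both above that of NDUFS1. It was at -0.073, -0.32, -0.15 and -0.11 in cows 1 to 4 at week 0, at 0.00034, 0.17, 0.13 and -0.00034 at week 1, and at 0.062, 0.011, -0.10 and 0.085 at week 3. All 4 forage values lay below all 4 week 1 values, and cow 2, the highest animal on forage for most members, was the lowest here. The difference was 0.24 ± 0.066 (SE) at week 1 against week 0, higher in 4 of 4 cows, with an unadjusted p of 0.0041 and an adjusted p of 0.711. At week 3 against week 0 it was 0.18 ± 0.066 (SE), higher in 4 of 4 cows, with groups that overlapped and an adjusted p of 0.901.

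SDHAF4, which helps to mount the flavinated SDHA onto SDHB, showed the widest differences. Its values were -0.018, -0.51, -0.39 and -0.36 at week 0, 0.016, 0.71, 0.29 and -0.016 at week 1, and 0.47, 0.17, 0.31 and -0.075 at week 3. Weeks 0 and 1 did not overlap, though cow 1 on forage and cow 4 at week 1 were close, at -0.018 and -0.016. The difference at week 1 against week 0 was 0.57 ± 0.18 (SE), higher in 4 of 4 cows, with an unadjusted p of 0.0082 and an adjusted p of 0.763. At week 3 against week 0 the difference was 0.54 ± 0.18 (SE), again higher in 4 of 4 cows, with an unadjusted p of 0.011 and an adjusted p of 0.901. SDHD and SDHAF4 were the 2 members without overlap between weeks 0 and 1, both higher, where 2.09% of all probe sets were higher without overlap.

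Without the 3 arrays of high controls the week 1 difference of SDHD was 0.23 and that of SDHAF4 0.70. No marker of the listed cell types was called in any of the 3 comparisons. Of all named genes 36.7% had a lower mean at week 1 than at week 0, and 35.5% at week 3. All 5 basal keratinocyte markers measured, of 8 listed, had lower means at weeks 1 and 3 than at week 0. Their median lay between 0.088 and 0.44 over the arrays of week 0, between -0.27 and 0.021 at week 1 and between -0.27 and -0.011 at week 3. KRT5, a keratin of basal cells, had the smallest p of the list at week 1, at -0.33 ± 0.11 (SE) and an adjusted p of 0.763. The median of the 8 fibroblast markers lay between -0.45 and -0.045 at week 0, between -0.31 and 0.15 at week 1 and between 0.027 and 0.24 at week 3. Of these 8, 7 had a higher mean at week 3 than at week 0 and 1 a lower one, where 35.5% of named genes were lower. DMKN, 1 of the 5 differentiated keratinocyte markers measured, was at -1.79 ± 0.24 (SE) at week 1 against week 0, with an adjusted p of 0.194. These 5 genes were split in that comparison: 3 fell and 2 rose, and the middle difference was -0.19. The part of the cell type markers in the differences of SDHD and SDHAF4 was not tested.

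The other SDH subunits showed no such separation. SDHA was at 0.027, 0.29, -0.086 and -0.033 at week 0, 0.16, -0.14, 0.026 and -0.11 at week 1, and -0.026, -0.067, 0.046 and 0.10 at week 3. SDHB was at 0.13, 0.42, -0.13 and 0.055 at week 0, 0.032, -0.12, -0.063 and -0.080 at week 1, and 0.040, -0.032, -0.13 and 0.068 at week 3. For both subunits cow 2 on forage was the highest sample, and the weeks overlapped.

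SDHC was at -0.018, 0.15, -0.028 and 0.16 at week 0, -0.0056, -0.0064, 0.095 and 0.15 at week 1, and 0.0056, -0.084, -0.040 and 0.19 at week 3. Here cow 4, the lowest animal on forage for most members, was the highest in every week. At week 1 against week 0 the difference was -0.063 ± 0.089 (SE) for SDHA, -0.18 ± 0.098 for SDHB and -0.0092 ± 0.069 for SDHC, with adjusted p of 0.763, 0.763 and 0.947. At week 3 against week 0 it was -0.035 ± 0.089, -0.13 ± 0.098 and -0.050 ± 0.069, each with an adjusted p of 0.901. Without the 3 arrays of high controls they were -0.013, -0.053 and 0.011 at week 1, and 0.073, 0.023 and -0.051 at week 3. The signs of SDHA and SDHC at both weeks, and of SDHB at week 3, turned in 1 or more of the fits without the 3 arrays, with or without the cow as a block, or without cow 2.

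At week 3 against week 1 the differences were 0.028 ± 0.089 (SE) for SDHA, 0.045 ± 0.098 for SDHB, -0.041 ± 0.069 for SDHC and -0.063 ± 0.066 for SDHD, each with an adjusted p of 0.999. Without the 3 arrays those of SDHA, SDHB and SDHC were 0.086, 0.076 and -0.062. The assembly factor SDHAF3 was at -0.040, 0.19, 0.039 and 0.18 at week 1 and at 0.19, -0.039, -0.52 and -0.059 at week 3, after 0.27, -0.21, -0.048 and 0.091 on forage. Its difference of -0.20 ± 0.15 (SE) was the one of smallest p in complex II between the grain weeks, lower in 3 of 4 cows, with an adjusted p of 0.999. The chosen probe set correlated with the members at -0.071. A different SDHAF3 probe set, which followed them at 0.60, was at -0.043 to 0.045 at week 1 and -0.10 to 0.0018 at week 3.

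**Figure D5:**
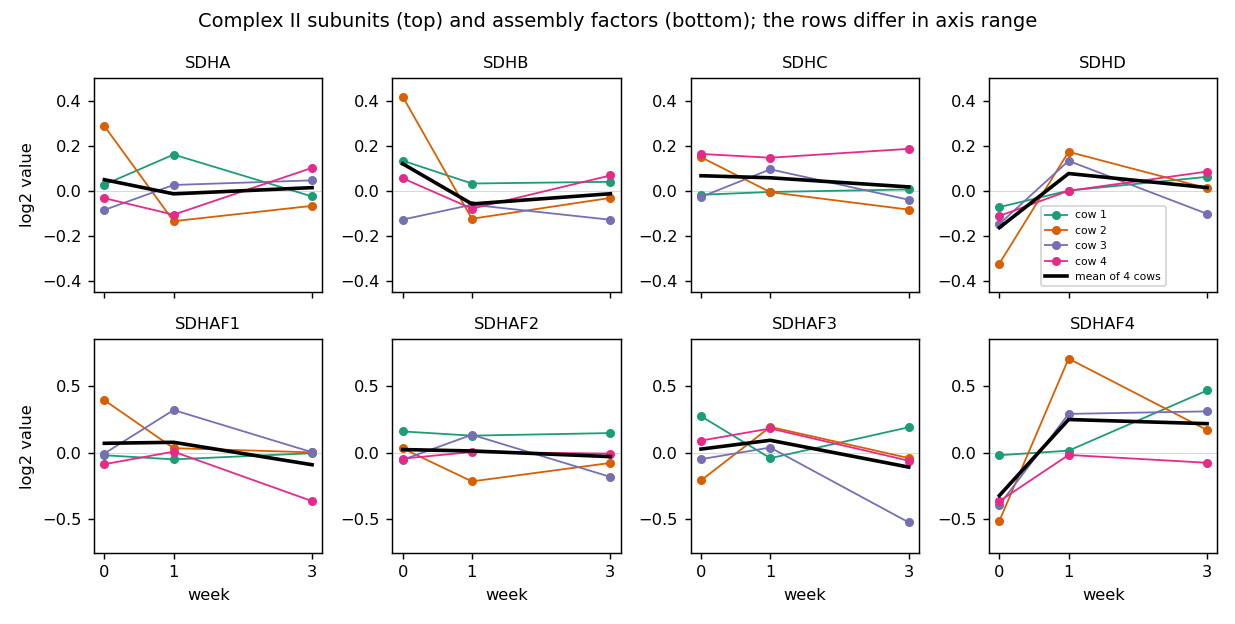
Log2 values of the 4 succinate dehydrogenase subunits (top) and the 4 assembly factors (bottom) at weeks 0, 1 and 3; coloured lines are cows 1 to 4 and the black line is their mean. SDHD and SDHAF4 are the only panels in which all 4 cows are higher at weeks 1 and 3 than at week 0.

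Complex III passes electrons from ubiquinol to cytochrome c. The Rieske iron-sulfur protein UQCRFS1 followed the group at 0.93, with 0.099, 0.30, -0.031 and -0.10 in cows 1 to 4 on forage. The core proteins UQCRC1 and UQCRC2 followed at 0.69 and 0.68. UQCRC1 was at 0.074, 0.35, -0.0020 and -0.013 at week 0, 0.056, -0.11, 0.0020 and -0.17 at week 1, and 0.033, -0.0066, -0.10 and 0.077 at week 3. Cow 2 on forage was again the highest sample and the weeks overlapped.

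The difference of UQCRC1 at week 1 against week 0 was -0.16 ± 0.084 (SE), lower in 3 of 4 cows, with an adjusted p of 0.763, and -0.083 without the 3 arrays of high controls. UQCRC2 was at 0.036, 0.29, -0.070 and 0.011 at week 0, 0.019, -0.10, 0.079 and -0.11 at week 1, and -0.012, 0.010, -0.24 and -0.010 at week 3. It was lower at week 3 than at week 0 in 4 of 4 cows, by 0.13 ± 0.084 (SE) on average, with overlapping groups and an adjusted p of 0.901. Without the 3 arrays the difference was -0.032. NDUFA10 of complex I was the other member lower at week 3 in every cow. Lower in 4 of 4 cows were 4.63% of all probe sets.

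UQCRB, a small subunit next to the ubiquinone site, departed from the group with a correlation of -0.16. It was at -0.020, -0.20, 0.048 and 0.012 at week 0, -0.048, 0.61, 0.20 and 0.0073 at week 1, and -0.0018, -0.054, -0.24 and 0.0018 at week 3. Its week 1 mean rested on cow 2. The difference at week 3 against week 1 was -0.27 ± 0.13 (SE), lower in 3 of 4 cows, with an adjusted p of 0.999. A different UQCRB probe set, which correlated with the members at 0.86, was at 0.022 in cow 2 at week 1.

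Complex IV, cytochrome c oxidase, held the closest followers of the whole group. COX5A, at a correlation of 0.99, stood at 0.080, 0.33, -0.073 and -0.23 on forage and between -0.043 and 0.12 in all 8 grain samples. COX7C followed at 0.98, with 0.11, 0.38, -0.064 and -0.26 on forage. The same order of cows, with cow 2 highest and cow 4 lowest, held in COX7A2, COX8A and COX4I1.

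Several subunits of complex IV come as a ubiquitous form and a form of heart and skeletal muscle. The ubiquitous COX7A2 was at 0.11, 0.29, -0.049 and -0.20 at week 0, -0.11, -0.047, 0.096 and 0.063 at week 1, and 0.092, -0.055, -0.021 and 0.021 at week 3. Its muscle counterpart COX7A1 was at -0.028, 0.23, -0.050 and -0.079 at week 0, -0.0043, 0.35, 0.0079 and 0.025 at week 1, and 0.0097, -0.024, 0.0043 and -0.057 at week 3. The former followed the group at 0.94. The latter followed it at 0.46 and was high in cow 2 at both weeks 0 and 1.

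COX7A1 had the smallest p of complex IV between the grain weeks, with a difference of -0.11 ± 0.087 (SE) at week 3 against week 1, lower in 3 of 4 cows, and an adjusted p of 0.999. The ubiquitous COX8A was at 0.098, 0.32, -0.029 and -0.25 at week 0, -0.076, -0.22, 0.11 and 0.029 at week 1, and 0.053, -0.18, -0.069 and 0.052 at week 3. The muscle form COX8B was at -0.049, 1.32, -0.25 and -0.043 at week 0, -0.93, 0.65, -0.25 and 0.043 at week 1, and -0.17, 0.87, 0.35 and 0.31 at week 3. In COX8B cow 2 was the highest animal in every week, and the weeks overlapped.

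The difference of COX8B was -0.37 ± 0.41 (SE) at week 1 against week 0, with an adjusted p of 0.763, and 0.30 without the 3 arrays of high controls. With the cow as a block and all 12 arrays its SE was 0.19 and its adjusted p 0.753 (limma). Another COX8B probe set gave 0.033 in this comparison. It was at 0.084 in cow 2 at week 0 and correlated with the chosen one at -0.062. COX6A1, the ubiquitous form of subunit 6A, was at -0.44, -0.24, 0.32 and -0.12 at week 0, -1.35, 0.94, -0.023 and 0.71 at week 1, and -0.17, 0.65, 0.27 and 0.023 at week 3. The muscle form COX6A2 was at -0.020, -0.019, 0.022 and -0.024 at week 0, -0.064, 0.043, 0.0061 and 0.035 at week 1, and -0.0041, 0.0041, 0.0084 and -0.0041 at week 3. The chosen COX6A1 probe set thus varied widely at week 1 and that of COX6A2 hardly at all. A different COX6A1 probe set followed the members at 0.96 and stayed between -0.16 and 0.37 on the 12 arrays.

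COX4I1, the common form of subunit 4, was at 0.079, 0.22, -0.11 and -0.15 at week 0, 0.071, -0.089, 0.0063 and 0.0048 at week 1, and 0.073, -0.058, -0.0048 and -0.058 at week 3. COX6B2, the testis form of subunit 6B, was at 0.32, 0.25, -0.052 and -0.049 at week 0, -0.061, 0.037, 0.27 and 0.12 at week 1, and 0.0021, -0.0021, -0.0052 and -0.036 at week 3. Both overlapped between weeks. COX6B2 was lower by 0.13 ± 0.094 (SE) at week 3 than at week 0, with an adjusted p of 0.901, and the difference was 0.040 without the 3 arrays. COX4I2 and COX6B1 were not analysed here. Over the 8 isoform genes and 3 comparisons, the 24 differences ranged from -0.37 to 0.46 with SEs of 0.028 to 0.43, and the adjusted p from 0.763 to 0.999.

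The ATP synthase, complex V, turns the proton gradient into ATP. The subunits of the catalytic core, ATP5F1A and ATP5F1B, followed the group at 0.44 and 0.45, and both had SDs in the lowest 40% of all probe sets. ATP5F1B stayed between -0.12 and 0.15 on the 12 arrays. The membrane subunits ATP5MF and ATP5ME, the inhibitor ATP5IF1 and the peripheral stalk subunit ATP5PO followed at 0.96, 0.95, 0.94 and 0.92. ATP5MC1, a c-ring gene, was at 0.54 in cow 2 and -0.53 in cow 4 on forage.

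ATP5MF was at 0.20, 0.51, -0.15 and -0.31 at week 0, 0.081, 0.0015, 0.17 and -0.0015 at week 1, and 0.12, -0.11, -0.19 and -0.041 at week 3. The week 0 samples held both the highest and the lowest values, and the weeks overlapped. Its difference at week 3 against week 0 was -0.12 ± 0.15 (SE), with an adjusted p of 0.901. It was 0.18 without the 3 arrays of high controls, and 0.032 when only the week 0 sample of cow 2 was left out.

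ATP5F1D, the delta subunit of the central stalk, was at 0.71, 0.10, 0.0043 and -0.39 at week 0, -0.042, -0.21, -0.23 and -0.30 at week 1, and 0.0079, 0.19, 0.34 and -0.0043 at week 3. All 4 values of week 1 lay below all 4 of week 3, and both overlapped with the wide range on forage. The difference at week 1 against week 0 was -0.30 ± 0.19 (SE), lower in 3 of 4 cows, with an adjusted p of 0.763, and -0.052 without the 3 arrays of high controls. At week 3 against week 1 it was 0.33 ± 0.19 (SE), higher in 4 of 4 cows, with an adjusted p of 0.999. It was the 1 member without overlap between the grain weeks, where 1.07% of probe sets were higher without overlap. A different ATP5F1D probe set, which followed the members at 0.85, overlapped between the weeks, with -0.018 to 0.16 at week 1 and -0.10 to 0.29 at week 3.

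Such disagreement between probe sets was common. For the 24 genes with several probe sets, 4 of the 27 other probe sets correlated with the chosen one above 0.5 and 8 below 0. In 9 of the 27 the other probe set was closer to the median of the members than the chosen one. Of these 27, 13 had an SD in the lowest 40%. With the mean of all probe sets of a gene in place of 1, the spread was again largest at week 0 in 69 of 88 genes.

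Partner genes from 6 lists gave no call either. Of 16 citric acid cycle genes measured, 8 stood above and 8 below their forage mean at week 1. Of all named genes 36.7% were below, and the median difference of the 16 was -0.00014. IDH3G, a subunit of isocitrate dehydrogenase, had the smallest p there, at -0.27 ± 0.061 (SE) and an adjusted p of 0.686. Of 15 glycolysis genes 10 stood lower, where 36.7% of named genes did, and their median was -0.075. LDHA, which turns pyruvate into lactate, was at -0.45 ± 0.096 (SE) with an adjusted p of 0.686, and at 0.39 ± 0.096 at week 3 against week 1 with an adjusted p of 0.575.

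Of 22 further assembly factors 18 stood above and 4 below their forage mean at week 1, where 36.7% of named genes were below. At week 3, 20 stood lower than at week 1, against 59.2% of named genes. The medians were 0.078 and -0.047. CMC2, a complex IV assembly factor, had the smallest p at week 1, at 0.32 ± 0.095 (SE) and an adjusted p of 0.761. The 17 genes of mitochondrial biogenesis and import had a median of 0.046, the 15 carriers and partner proteins 0.013 and the 9 ubiquinone synthesis genes 0.013. TOMM40, the pore of the outer membrane import machinery, was at -0.28 ± 0.075 (SE) at week 3 against week 0, with an adjusted p of 0.901. In each of these lists 0 to 1 gene correlated with the members' median above 0.8. That was 0% to 6.67% of a list, against 1.47% of the other named genes. Above 0.5 stood 9 of 15 carriers and partner proteins (60%) and 5 of 9 ubiquinone synthesis genes (55.6%). The remaining lists ran from 17.6% (biogenesis and import) to 27.3% (assembly factors), against 9.56% of the other named genes.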

How the data were processed

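Biotin-labelled RNA from 12 papilla samples was hybridised to Affymetrix bovine arrays. The authors made the values with GCRMA, per the submitters' processing notes, whose version the sources do not state. The deposited table holds log values, taken as log2 since the base is not stated, with the median of every probe set at 0 over the 12 arrays. Of 24016 probe sets (112 controls left out), 13292 had 1 gene, 86 several and 10638 none in the platform annotation; symbols were updated through RefSeq, where all 88 members matched.

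Weekly means were compared with limma 3.58.1 (R 4.3.3), without a term for the cow and with Benjamini-Hochberg adjustment. The number of arrays, 4 a week, limits the precision. Same-numbered samples come from the same animal, and the cow as a block was an alternative. Over all probe sets, deviations from the weekly means correlated at 0.30 to 0.69 within cows and -0.44 to 0.066 between cows. Over the members alone they correlated at -0.16 to 0.79 within cows and -0.59 to 0.43 between cows, ranges that overlap. On simulated data for week 1 against week 0 over 24016 probe sets, with no cow effect, 87% of changes of 1 and 96% of changes of 2 were called, with 10 false among 193 calls. In that comparison no member difference exceeded 0.57 in size. The simulation therefore does not tell how often changes as small as those of the members would be called.

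Members and lists were chosen with earlier results of these data known. Full values are given for the member of smallest p in each complex and comparison, the complex IV isoforms (their differences as a range) and the SDH subunits. The week 1 difference of SDHAF4, NDUFS1, NDUFS3, NDUFA11, NDUFB9, COX5A, COX7C and probe sets not chosen were added after their values were seen. Alternatives were the block, array weights, robust variances, quantile scaling, median centring, the mean of probe sets, a filter on SD, leaving out the 3 arrays of high controls, and leaving out each array or cow. Sequences and coordinates were not used here.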

Additional observations from a re-analysis of the deposited data

Results flagged for a closer look

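In 9 of 84 groups of 4 cows that were examined, 1 cow stood far from the other 3. The measure was the gap of that cow to the nearest one over the range of the group. Chance gives about 1 such group in 20 where groups are independent and not selected. The groups here draw on the same 4 animals and on members that followed one another, and some genes were chosen for a small p. That rate therefore does not apply to the count of 9. Cow 2 was the distant animal at week 0 for NDUFV1 (0.63, a gap of 0.912 of the range), COX8B (1.32, 0.866) and COX7A1 (0.23, 0.835), and again for COX7A1 at week 1 (0.35, 0.916). Cow 3 was the distant animal at week 1 for the median of the 88 members (0.13, a gap of 0.904), of complex I (0.17, 0.9043) and of complex II (0.11, 0.897). It was also so for COX6A2 at week 0 (0.022, 0.889), where the whole range is narrow, and for UQCRC2 at week 3 (-0.24, 0.912). The week 0 array of cow 2 had the highest hybridization controls (0.72), while those of cow 3 were at 0.055 at week 1. Their part in these values was not tested.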

How the results depend on the processing

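Each count of called members and each median was recomputed under 25 alternatives. The count stayed at 0 in all of them for both comparisons with week 3. It became 4 for week 1 against week 0 (NDUFA4L2, COX6A1, COX6A2 and SDHD, the last at 0.20 with an adjusted p of 0.048) and 1 for the F test under array weights alone, a setting that called 41.5% and 25.4% of all probe sets. With the cow as a block it was 0. The week 1 median ran from -0.084 to 0.18 and changed sign in 7 alternatives: without the 3 arrays of high controls (0.17, or 0.18 with the replicate block), without cow 1, without cow 2, and without the week 0 sample of cow 1, the week 0 sample of cow 2 or the week 1 sample of cow 2. The week 3 median ran from -0.12 to 0.12 and changed sign in 4, without those arrays, without cow 2 and without the week 0 sample of cow 2. The median of week 3 against week 1 ran from -0.072 to 0.022 and was above 0 only without cow 3. Of 723 alternative values of the 29 member differences given one by one, 31 had the other sign, and 1 was newly called. Without the 3 arrays, and then with the block too, week 1 against week 0 gave 0.30 and 0.081 for COX8B and 0.011 and 0.058 for SDHC (0.054 under array weights), and with the block SDHA was at 0.027. Week 3 against week 0 then gave 0.18 and 0.13 for ATP5MF, 0.040 and 0.059 for COX6B2, 0.073 and 0.13 for SDHA, 0.023 and 0.015 for SDHB, and with the block SDHC was at 0.00012. Leaving out 1 sample or cow gave, at week 1 against week 0, -0.13 to 0.057 for SDHA and -0.053 to 0.040 for SDHC; at week 3 against week 0, -0.25 to 0.050 for ATP5MF, -0.092 to 0.071 for SDHA and -0.11 to 0.011 for SDHC; and at week 3 against week 1, -0.033 to 0.099 for SDHA. Of the isoform differences given as a range, 91 of 522 alternative values had the other sign. The count of members whose spread was largest at week 0, with alternatives chosen after seeing the data, was 31 with cows 3 and 4 alone and 50 to 70 with any 3 cows, 68 after quantile scaling and 65 after centring each array. The causes were not tested.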

Other observations

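Outside the 88 genes, 133 other named genes correlated with their median above 0.8 over the 12 arrays. The closest were IHQ (0.97), MTLN, a mitochondrial microprotein (0.96), POLR2L, a small subunit shared by the RNA polymerases (0.95), TBCA, a tubulin cofactor (0.94), and SNRPD2, a core protein of the spliceosome (0.93). By family, looked up after these names were seen, 22.4% of 67 mitochondrial ribosomal protein genes, 17.5% of 40 proteasome genes, 16.7% of 18 mitochondrial translocase genes and 12.7% of 63 cytosolic ribosomal protein genes passed 0.8, against 1.47% of all other named genes. On the week 0 array of cow 2 the medians of these families were 0.23, 0.21, 0.24 and 0.18, and on that of cow 4 they were -0.12, -0.16, -0.099 and -0.095. At week 1 in cow 3 the mitochondrial ribosomal proteins and translocases were at 0.25 and 0.24 and the cytosolic ribosomal proteins at -0.0049. The genes in question are short: the median gene length was 7.07 kb for the members and 5.86 kb for 132 of the 133 followers, against 20.8 kb for the other named genes.

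Leukocyte markers (8 measured) also differed between animals, with a median of 0.34 on the week 0 array of cow 1, -0.70 in cow 4 at week 0 and -0.69 in cow 3 at week 1. The median of the members was low on the former of these last 2 arrays and high on the latter. The highest leukocyte median was 0.79 on week 3 cow 2, where that of the members was -0.035. On week 0 cow 2, where the members were highest, it was -0.012. Over the 12 arrays the 8 leukocyte markers correlated with the members' median at -0.032 to 0.47, with a median of 0.12.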
